A study of Mus musculus with 94 samples.

Results

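The cytosolic ribosome is built from ribosomal RNA and about one copy each of a large set of proteins, named Rpl in the large subunit and Rps in the small subunit. Most of these proteins are encoded by single active genes that are transcribed at high levels in nearly every cell, and their messages begin with a run of pyrimidines through which their translation responds to mTOR signalling. In the blood system ribosomal protein genes are best known from Diamond-Blackfan anaemia, an inherited failure of red cell production, and from the 5q deletion form of myelodysplastic syndrome, in which a copy of RPS14 is lost. Haematopoietic stem cells are known to hold their rate of protein synthesis low.

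The genes described here are the cytosolic ribosomal protein genes, taken by symbol: Rpl or Rps followed by digits with an optional x, a or l ending, together with Rplp0, Rplp1, Rplp2 and Rpsa. Pseudogene and related-sequence rows, the kinases named Rps6k, and Rpl7l1, Rpl22l1 and Rps19bp1 were left out. The rule found 80 members among the 13244 genes of the table, 48 of the large and 32 of the small subunit. The rule used symbols only and no measured value. Of the 80 members, 78 passed the filter used for comparisons (above 0 in 25% or more of the Ski-KO or of the Ski-WT cells), and 74 were above 0 in at least 90% of all cells and are called core members below (45 large and 29 small subunit). In every one of the 94 cells 69 members were above 0.

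The study profiled single mouse haematopoietic stem cells that lack Ski, a nuclear repressor of TGF-beta signalling through Smads, beside wild-type ones, in work on early myelodysplastic syndrome. All cells were of fetal liver origin on the C57BL/6 strain, had been carried in transplanted hosts for 6 months, and were sorted from hindlimb marrow as Cd45.2+ lineage-negative c-Kit+ Sca-1+ Cd48- Cd150+ cells. The table holds 46 Ski-KO cells and 48 Ski-WT cells by their labels. The Ski-KO cells carry the label prefixes 051716 (27 cells) and 051816 (19 cells), and every Ski-WT cell carries 061016, so the genotypes cannot be told apart from the prefixes. The labels say neither what the prefix stands for, nor how Ski was deleted, nor which or how many animals gave the cells. Each genotype is therefore 1 sample: no test was made, no p-value is given, and SDs below describe cells, not animals. Values are log2(TPM + 1), where TPM is the number of transcripts scaled to a fixed total and to transcript length, so levels may be compared between genes.

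Sequencing depth per cell is unknown, since TPM keeps none. The number of genes above 0 per cell had a median of 3248 in prefix 051716, 3679 in prefix 051816 and 3670.5 in the Ski-WT cells. Of the sort genes, Kit reached 5 TPM in 79 and Ly6a (Sca-1) in 56 of the 94 cells, Slamf1 (Cd150) in 11 and Cd48 in 0. Among markers of other cell types, Mpo, Elane, Ctsg, Hba-a1, Hbb-b1, C1qa and Mcpt8 reached 5 TPM in 0 cells, while Lyz2 reached it in 56, Prtn3 in 57, Pf4 in 29, Cd79b in 20, Cd68 in 4 and Cpa3 in 2. The globin gene Hbb-b2 reached it in 20 cells, 10 of prefix 051716, 3 of 051816 and 7 of 061016. Its mean log2(TPM + 1) was 1.02 higher in the pooled Ski-KO cells, by 1.65 in prefix 051716 but 0.13 in prefix 051816. The summed TPM of the megakaryocyte and platelet list (5 genes, none at 0 in every cell) had medians of 2.14, 0.90 and 14.9 in prefixes 051716, 051816 and 061016, with ranges of 0 to 3463, 0 to 6022 and 0 to 8317. Across all 94 cells its log2 value had a correlation of -0.43 with the members' share of TPM described below. This was the largest in size among the marker lists, and the others lay between 0.04 and 0.25. The part of the megakaryocyte and platelet list in the results was not tested.

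Promoters of 59 of the 80 members were found by symbol in a RefSeq table of GRCm38.p6, 71 in all, because some genes have several starts. Each holds 250 bases before and 50 after the start. The windows below run from 60 bases before to 10 after the start of 6 members. These stand at the ends of the orders described in the results. Rps18 and Rpl41 are among the highest in level, and Rps15a and Rpl36al among the lowest. Among members higher in both Ski-KO prefixes, Rps2 and Rpl27a have the highest Ski-KO values relative to Ski-WT. Capitals mark the longest run of C and T in each window, or the first where runs tie, on the strand that reads as the message. Rps18 (chr17:33955656-33955725, minus strand), Rpl41 (chr10:128549159-128549228, minus), Rps15a (chr7:118116138-118116207, minus), Rpl36al (chr12:69184058-69184127, minus), Rps2 (chr17:24720003-24720072, plus) and Rpl27a (chr7:109519135-109519204, plus) read as follows.
Rps18: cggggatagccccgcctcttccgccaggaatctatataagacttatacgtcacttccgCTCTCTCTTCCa
Rpl41: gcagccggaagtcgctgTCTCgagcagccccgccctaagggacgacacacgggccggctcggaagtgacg
Rps15a: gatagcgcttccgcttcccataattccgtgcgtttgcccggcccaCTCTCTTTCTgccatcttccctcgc
Rpl36al: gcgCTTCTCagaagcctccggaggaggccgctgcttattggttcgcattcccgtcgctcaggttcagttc
Rps2: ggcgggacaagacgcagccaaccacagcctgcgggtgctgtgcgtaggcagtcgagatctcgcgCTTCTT
Rpl27a: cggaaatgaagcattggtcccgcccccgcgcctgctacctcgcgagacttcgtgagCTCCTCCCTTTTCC

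Some runs go on past the end of these windows. Within 40 bases on either side of the start, the longest run was 11 bases in Rps18, 4 in Rpl41, 10 in Rps15a, 10 in Rpl36al, 8 in Rps2 and 20 in Rpl27a. Over the same span, a run of 8 or more pyrimidines was present in 51 of the 71 member promoters (71.8%), compared with 29.3% of all 32851 promoters of the same length. Over the whole 300 bases and on both strands, the letters CCGGAAG, the core bound by GABP and other ETS factors, were found in 25 member promoters (35.2%) and in 8.86% of all promoters. GGGCGG, the core of Sp1 sites, was found in 42 (59.2%) and 35.7%, and AAGATGG, the core of YY1 sites, in 11 (15.5%) and 6.34%. TATAAA was found in 6 (8.45%) and 13.6%. These 4 motifs do not contain one another, and a match describes the letters only. The median GC content was 58.3% in member promoters and 52.7% in all promoters.

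The members sit on 19 chromosomes, with 14 on chromosome 7 and 4 on the X chromosome (Rpl10, Rpl36a, Rpl39 and Rps4x), among the 79 found in the GENCODE vM21 annotation. Of these, 29 contain an annotated snoRNA gene within their bounds, a class of small RNA that guides ribosomal RNA modification and is often carried in introns of ribosomal protein genes. The median level in Ski-WT cells was 10.76 on the log2 scale for members with such a gene and 10.81 for those without.

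Members differed widely in level although the ribosome takes them in near-equal numbers. In the Ski-WT cells the mean level of the 74 core members ran from 6.21 to 13.12, with a median of 10.81 and quartiles of 10.16 and 11.69, and 49 of the 74 lay within 1 log2 unit of the median. The 10 highest members held 31.5% of all TPM on members. Rps18, a protein of the small subunit head, was highest, with 13.12 ± 0.57 (SD, 48 cells) in the Ski-WT cells and a range over cells of 11.46 to 14.19. The lowest, median and highest values were 12.13, 13.13 and 13.85 in prefix 051716 and 12.17, 13.13 and 14.01 in prefix 051816, both inside the Ski-WT range. Rps19, the gene most often mutated in Diamond-Blackfan anaemia, followed at 12.77 ± 0.47, with Rpl32 at 12.70 ± 0.56, Rps14 at 12.65 ± 0.67 and Rpl9 at 12.52 ± 0.57. Rps18, at a mean of 9521 TPM, alone held 4.65% of the member TPM.

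**Figure D1:**
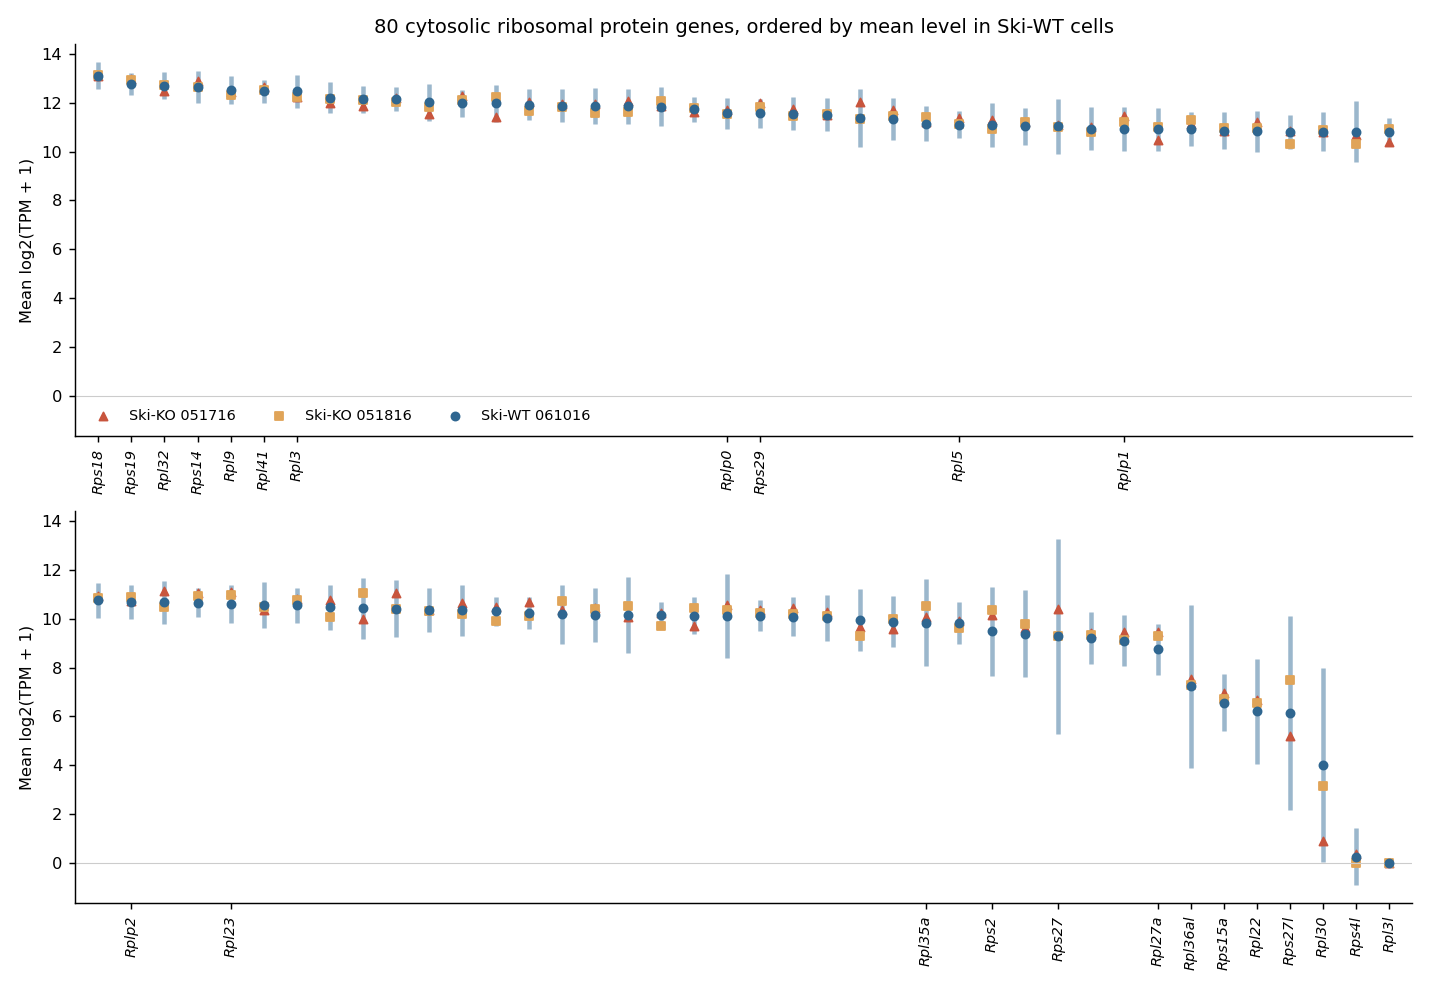
Mean log2(TPM + 1) (vertical axis) of the 80 members (horizontal axis, some labelled), ordered by their mean in the Ski-WT cells. Circles are Ski-WT cells, triangles and squares the Ski-KO prefixes 051716 and 051816, and bars ± 1 SD over the 48 Ski-WT cells. Levels run gradually from 13.12 for Rps18 to 8.75 for Rpl27a and then drop steeply over the remaining members.

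The order of levels was nearly the same in all prefixes. Over the 74 core members, prefix means had a Spearman correlation of 0.96 between 051716 and 061016, 0.95 between 051816 and 061016, and 0.91 between the Ski-KO prefixes. The members share the same cells and libraries within a prefix, and these correlations are descriptions. The median absolute difference of a member was 0.23 between 051716 and 061016, 0.16 between 051816 and 061016, and 0.21 between the Ski-KO prefixes. Means lay within 0.5 of each other for 68, 67 and 61 of the 74 members in the same order. The pair of prefixes with the Ski-KO label had the fewest members within 0.5 of each other. This pair sets 27 against 19 cells, while the other pairs each include the 48 Ski-WT cells. The part of cell numbers in this was not tested.

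A few members stood far below the rest. A level in Ski-WT cells more than 3 scaled median absolute deviations from the member median (10.80, limits of 7.61 and 13.98) was found for 6 of the 79 members above 0 in any cell, and all 6 were low. They were Rpl36al (7.23), Rps15a (6.57), Rpl22 (6.21), Rps27l (6.15), Rpl30 (4.01) and Rps4l (0.25). Rpl36al and Rps27l are variant copies of Rpl36a and Rps27, Rps4l is a copy related to Rps4x, and Rpl22, Rps15a and Rpl30 encode standard subunit proteins. Rpl3l, the muscle-enriched copy of Rpl3, was listed at 0 in all 94 cells, and Rps4l was above 0 in 5. Rpl10l and Rpl39l, the other copies on the list of variants, were not analysed here.

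The low members were of 2 kinds. Rps15a was low but present in every cell, with a lowest, median and highest value of 2.87, 6.80 and 8.67 in the Ski-WT cells, 4.26, 7.35 and 9.18 in prefix 051716 and 2.86, 6.95 and 8.87 in prefix 051816. Rpl22, which binds RNA and has a known role in T cell development, was likewise above 0 in 91 cells and ran from 0 to 10.13 in the Ski-WT cells around a median of 6.81. Rpl36al, Rps27l and Rpl30 instead were at 0 in some cells and high in others. Rpl36al was at 0 in 10 of the 94 cells and had a median of 8.65 over the Ski-WT cells above 0. Rps27l, known as a p53 target, was at 0 in 22 cells, and the median over the cells above 0 was 8.54 in the Ski-WT cells, 8.07 in prefix 051716 and 9.35 in prefix 051816.

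Rps27 encodes a zinc-finger protein of the small subunit and had the same 0-or-high pattern without being among the lowest. It was above 0 in 41 of 48 Ski-WT cells (85.4%, exact Clopper-Pearson 95% interval 72.2% to 93.9%), 25 of 27 cells of prefix 051716 (92.6%, 75.7% to 99.1%) and 16 of 19 of prefix 051816 (84.2%, 60.4% to 96.6%). These intervals, as those below, cover counting error only. Where Rps27 was above 0, its median was 10.89, 10.91 and 10.97 in the same order. Rps27rt, a near-identical retrotransposed copy outside the symbol rule, had a mean of 11.69 in the 12 cells in which Rps27 was at 0 and 10.65 in the 82 other cells, and the correlation of Rps27 and Rps27rt across all 94 cells was -0.24. Every cell thus held at least one of the pair. Reads of these copies cannot be told apart with certainty, and the sum of mean TPM for Rps27 and Rps27rt was 5032 in the Ski-WT cells and 5678 and 5270 in prefixes 051716 and 051816.

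**Figure D2:**
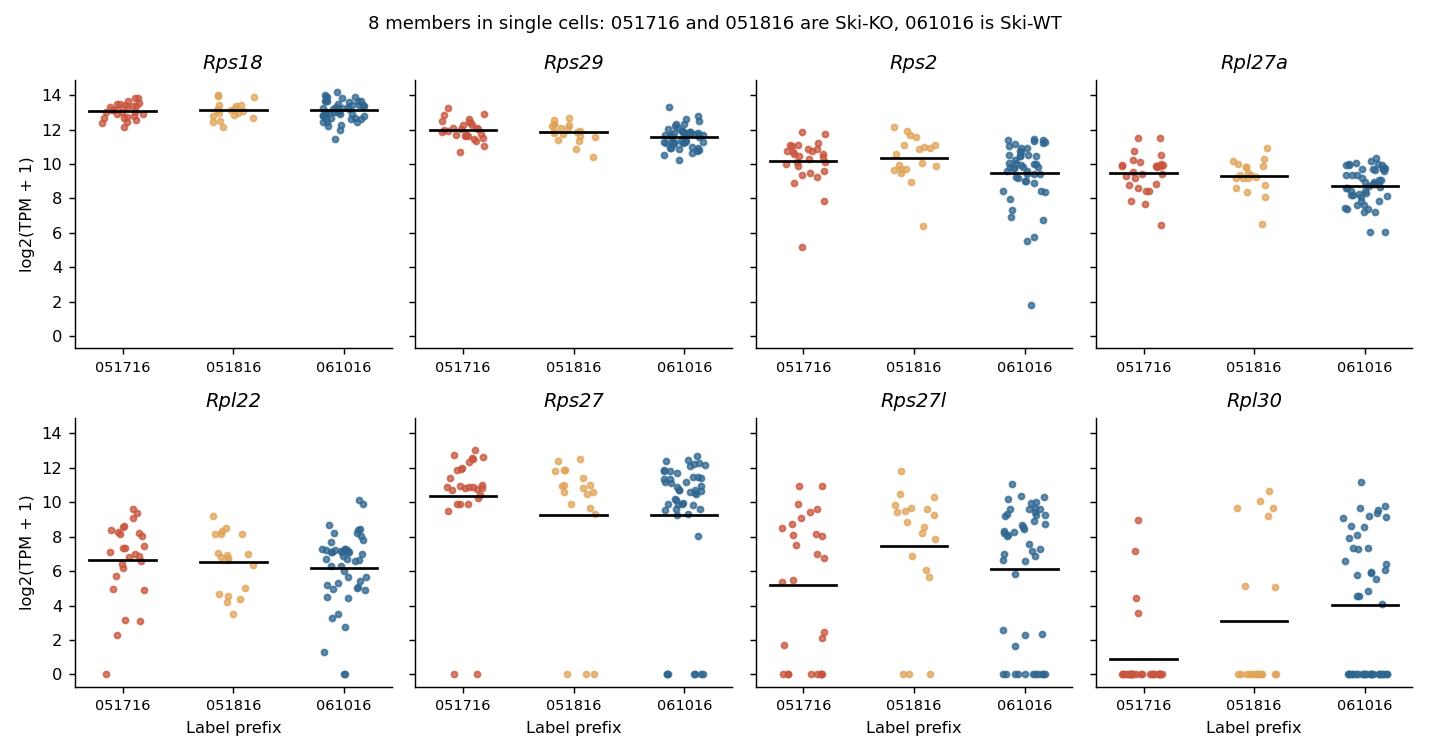
log2(TPM + 1) (vertical axis) of 8 members in single cells of the 3 label prefixes (horizontal axis). Points are single cells, with the mean of each prefix drawn as a black line. Rps18 and Rps29 are tight in every prefix, while Rps27, Rps27l and Rpl30 are split between cells at 0 and cells at high levels.

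Most pseudogene entries described here varied with their parent genes, unevenly between prefixes. Rps15a-ps4 and Rps15a-ps6 had correlations with Rps15a of 0.82 and 0.80 across the 94 cells, and their mean TPM over all cells was 79.9 and 44.5, compared with 137 for Rps15a. Rpl34-ps1, at a mean of 1152 TPM, was nearly as high as Rpl34 (1247 TPM), with a correlation of 0.58 over all cells and 0.78, 0.92 and 0.40 within prefixes 051716, 051816 and 061016. Rpl31-ps12 (23.6 TPM beside 775 for Rpl31, correlation 0.61), Rpl14-ps1 (87.5 beside 3337, correlation 0.48) and Rplp2-ps1 (42.7 beside 2037, correlation 0.43) took a smaller part. For Rplp2-ps1 the correlation was 0.78, 0.36 and 0.18 within the prefixes in the same order. Rps19-ps3 was above 0 in only 4 cells. Reads shared with near-identical copies can be split between entries, so levels of Rps15a, Rpl34, Rps27 and Rpl36al, and of other members with processed copies, are uncertain. The part of such sharing in the low level of Rpl30 and Rpl22 was not tested.

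Ribosomal proteins whose symbols fall outside the rule had levels within the range of the core members. Rps3a1 was above 0 in all 94 cells, with a mean of 12.44 in the Ski-WT cells, as was Fau (10.33), which encodes a small subunit protein made as a fusion. Gnb2l1, which encodes the small subunit scaffold Rack1, had a mean of 11.17. Rpl22l1, the paralogue of Rpl22, had a mean of 7.74, above that of Rpl22 (6.21), and a correlation with Rpl22 of 0.13 across cells.

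The members' summed share of a cell's TPM was similar in the 3 prefixes. It was 20.5% ± 4.42 (SD, 48 cells) in the Ski-WT cells, 22.8% ± 4.62 (27 cells) in prefix 051716 and 21.5% ± 4.36 (19 cells) in prefix 051816. The lowest, median and highest cells were at 12.9%, 19.9% and 35.2% in the Ski-WT cells, at 15.6%, 22.4% and 33.9% in prefix 051716 and at 11.9%, 21.9% and 30.5% in prefix 051816. The prefixes overlapped over nearly their whole range, and the difference between genotypes, 1.78 percentage points, was below the SD over cells. The mean level of the core members in a cell was 10.83 ± 0.28 in the Ski-WT cells, 10.96 ± 0.39 in prefix 051716 and 10.89 ± 0.39 in prefix 051816.

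Cells with fewer genes above 0 had a higher member share in 2 of the 3 prefixes. The correlation of the share with the number of genes above 0 was -0.69 in the 48 Ski-WT cells and -0.56 in the 19 cells of prefix 051816, but -0.08 in the 27 cells of prefix 051716, and it was -0.51 over all 94 cells. Both measures come from the same library and TPM sums to a fixed total in each cell, so this is a description. Prefix 051716, which had the highest mean share, also had the lowest median number of genes above 0, and the part of the latter in the former was not tested.

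**Figure D3:**
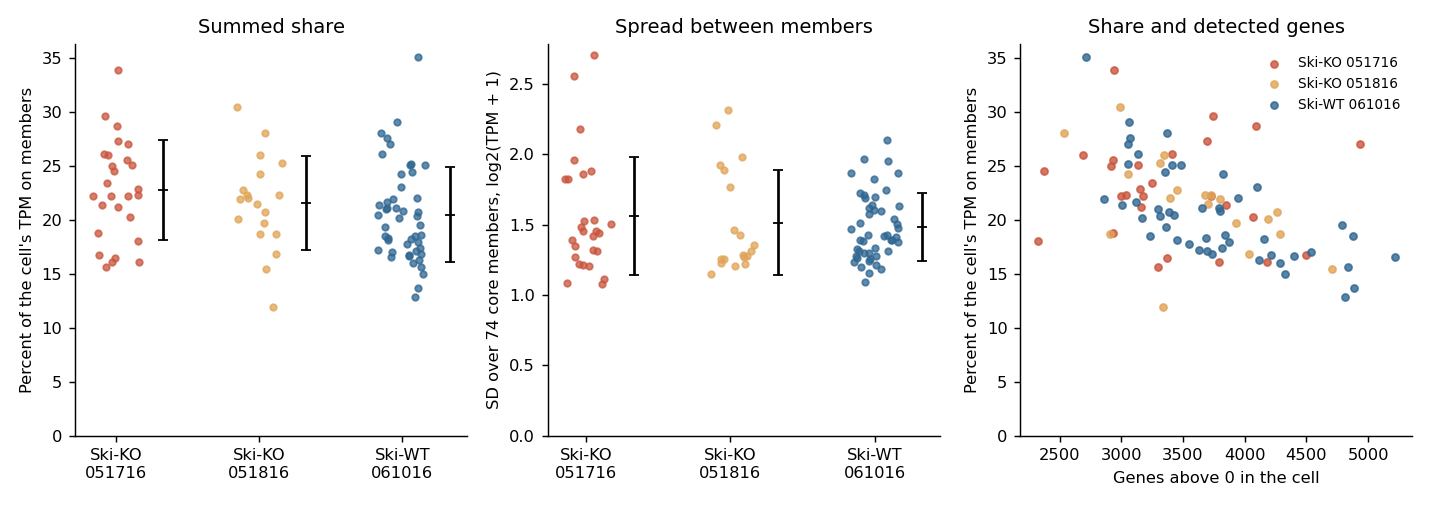
Left, percent of each cell's TPM on the 80 members; middle, SD over the 74 core members within each cell on the log2(TPM + 1) scale; right, the percent (vertical axis) against the number of genes above 0 (horizontal axis). Points are cells, colours are label prefixes and black bars are mean ± SD over cells. The share lies between 11.9% and 35.2% in all cells and is higher where fewer genes were above 0 in the Ski-WT cells.

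Levels of the core members within a cell were spread widely. The SD over the 74 core members in a cell, on the log2 scale, had medians over cells of 1.45, 1.31 and 1.42 in prefixes 051716, 051816 and 061016. Its lowest and highest values were 1.08 and 2.70, 1.15 and 2.31, and 1.09 and 2.10 in the same order. The medians of the Ski-KO prefixes lay on either side of the Ski-WT median, and the highest single cells were Ski-KO. The SD was larger in cells with fewer genes above 0 in every prefix (correlations of -0.61, -0.65 and -0.54 in 051716, 051816 and 061016). Core members of the large subunit were lower on average than those of the small subunit in each prefix. The large minus small difference was -0.19 ± 0.20 in the Ski-WT cells, -0.26 ± 0.29 in prefix 051716 and -0.25 ± 0.24 in prefix 051816, and single cells ran from -0.71 to 0.71.

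With each member set against the median core member of its cell, some were more constant than others. In the Ski-WT cells the most constant included Rpl41, with 1.49 ± 0.38 above the cell's median member, Rpl32 (1.72 ± 0.41), Rps29 (0.59 ± 0.42) and Rps19 (1.79 ± 0.42). Rpl41 encodes the smallest ribosomal protein, and Rps29 a zinc-finger protein of the small subunit. Rps29 and Rps19 were about as constant in prefixes 051716 (SD 0.40 and 0.49) and 051816 (0.41 and 0.39), whereas the SD of Rpl32 was 0.70 and 0.81 and that of Rpl41 0.59 and 0.52. In the Ski-WT cells the least constant core members were Rpl22 (-4.77 ± 2.16), Rpl35a (-1.13 ± 1.86), Rps2 (-1.49 ± 1.78), Rpl12 (-0.86 ± 1.71) and Rps10 (-1.58 ± 1.68), all below the median member. Over the 74 core members, the SD across Ski-WT cells had a Spearman correlation of -0.68 with the mean level, so low members varied most.

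Core members varied less between cells than other genes seen as often, at a higher level. The median SD over Ski-WT cells was 0.77 for the 74 core members (quartiles 0.64 and 1.04) and 2.19 for the 476 other genes above 0 in at least 90% of cells, whose median level was 6.31 compared with 10.81. Level and spread cannot be told apart here, and no test was made.

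Members varied together only weakly from cell to cell. Over the 2701 pairs of core members the median correlation across all 94 cells was 0.11, with 5th and 95th percentiles of -0.13 and 0.37, and it was 0.11, 0.13 and 0.11 within prefixes 051716, 051816 and 061016. Each core member was also set against the mean of the other core members. That correlation was above 0 for 69 of 74, with a median of 0.35. The 476 other genes, set against the core member mean, had a median of -0.06 and a range of -0.44 to 0.46. Their share above 0 is not given here. TPM sums to a fixed total in each cell, and the part of this in the contrast was not tested. Rps29 (0.74), Rplp1 (0.68), Rpl32 (0.64) and Rpl36 (0.64) were among the core members that followed the rest most closely. The lowest core members were Rpl4 (-0.29), Rpl7a (-0.21), Rpl3 (-0.15), Rpl18 (-0.04) and Rpl13 (-0.02). These genes were ranked on the correlations themselves, so their values are a description.

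Coding length went with this order, a relation noticed after the values were seen. The 38 core members with coding sequences of up to 468 bases had a median correlation with the others of 0.39 and the 36 longer ones 0.27, and over all 74 the Spearman correlation of the 2 measures was -0.51. Rpl4 has the longest coding sequence, at 1257 bases in the GENCODE annotation, and Rpl3 has 1209. The mean of the longer members minus that of the shorter was 0.48 ± 0.22 in the Ski-WT cells, 0.31 ± 0.31 in prefix 051716 and 0.50 ± 0.45 in prefix 051816, with a range of -0.32 to 1.65 over all cells. The difference of prefix 051716 from Ski-WT had a median of 0.21 over the shorter and 0.06 over the longer members, and for prefix 051816 the values were 0.10 and 0.05. Among the 476 other genes, 426 have a coding length, and their correlation with the core member mean had a median of 0.03 for the 57 of up to 468 bases and -0.08 for the 369 longer ones.

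The non-member genes that varied most like the core members included other ribosomal genes. Of 476 genes ranked by correlation with the per-cell core member mean over 94 cells, the 10 highest included Gpx1 (0.41), Rps15a-ps4 (0.39), Fau (0.39), Vamp8 (0.38), Rps3a1 (0.36), Tpt1 (0.32), Ifitm3 (0.32), Eef1b2 (0.31) and Sepw1 (0.30). Fau and Rps3a1 encode ribosomal proteins, and Tpt1 and Eef1b2 are pyrimidine-start messages of the same translational class. Gpx1 encodes a glutathione peroxidase, Vamp8 a vesicle fusion protein and Ifitm3 an interferon-induced membrane protein. Within single prefixes these values were uneven: for Gpx1 the correlation was 0.75 in prefix 051816 and 0.05 in the Ski-WT cells.

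Between genotypes the members were close to level, with a small shift to higher values in the cells labelled Ski-KO. Over the 78 members measured, the median of the difference in mean log2(TPM + 1), Ski-KO minus Ski-WT, was 0.10, with 0.17 in prefix 051716 and 0.06 in prefix 051816. The median over all 6240 genes measured was -0.22, with -0.27 and -0.20 in the 2 prefixes. Both prefix differences use the same Ski-WT cells and are not independent. Higher in both Ski-KO prefixes were 35 members, where the share over all 6240 genes was 18.5%, and lower in both were 9, where it was 44.3%. Among the 550 genes above 0 in at least 90% of cells the shares were 22.5% and 39.5%, with 34 and 8 of the 74 core members. Past a pooled difference of 0.5 the shares there were 6.18% upward and 23.8% downward, with 2 and 0 core members. With 1 sample a genotype, this describes these libraries and not the genotypes.

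The shift depended on how cells were scaled. After quantile normalization the median over members was -0.0065, beside -0.0067 over all genes. Then 28 members were higher in both prefixes (35.9%, against 29.3% over all genes) and 23 were lower (29.5%, against 32.1%). With the number of genes above 0 as a covariate the median was 0.07, with 32 higher and 14 lower. By size, the gap between the Ski-KO prefixes exceeded the pooled genotype difference for 49 of the 78 members. The gap sets 27 against 19 cells and the pooled difference 46 against 48. The same count over all genes is not given here, so nothing particular to the members is read from it.

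**Figure D4:**
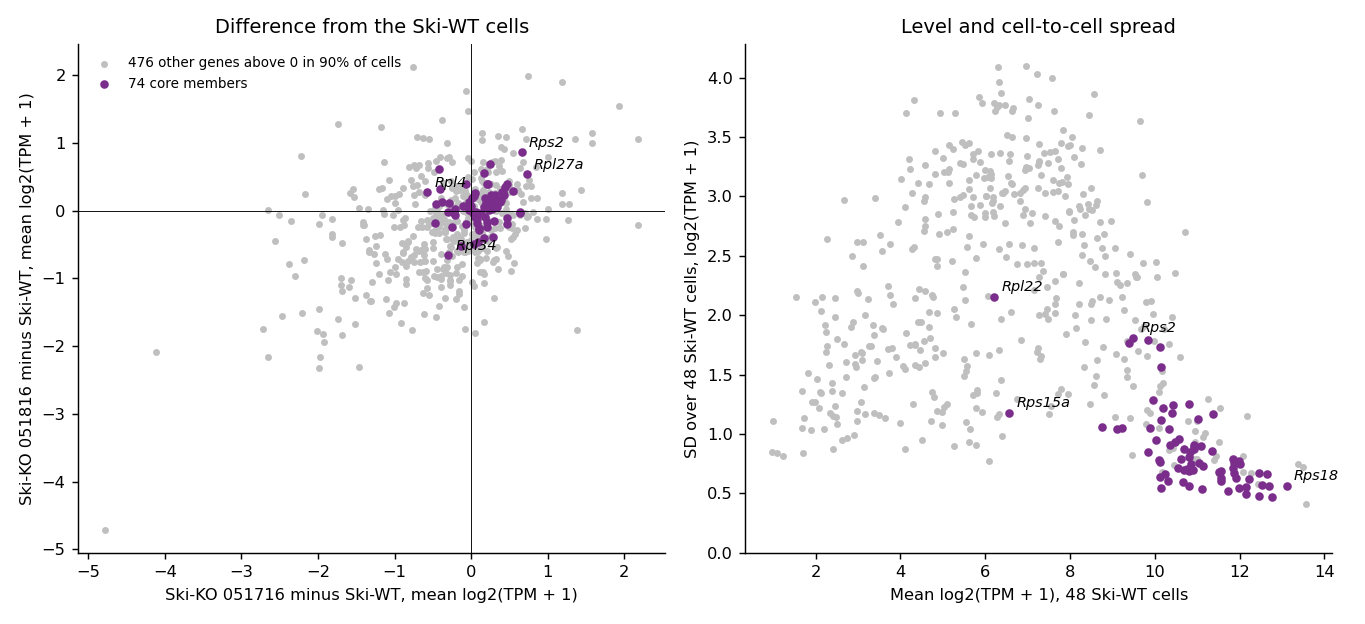
Left, mean log2(TPM + 1) minus that of the Ski-WT cells in prefix 051716 (horizontal axis) and prefix 051816 (vertical axis), both Ski-KO, for 74 core members (purple) and 476 other genes above 0 in at least 90% of cells (grey). Right, SD over the 48 Ski-WT cells (vertical axis) against the mean (horizontal axis) for the same genes, both in log2(TPM + 1). Core members lie close to 0 on the left, with Rps2 at 0.66 and 0.86, and at high level and low spread on the right.

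Few members differed by much. A difference of at least 0.5 with both prefixes on the same side was found upward for 2 members, Rps2 and Rpl27a (8.91% over all genes), and downward for 1, Rpl30 (29.3% over all genes). Rpl30 passed the filter only through the Ski-WT cells, the group where it was higher. Rps2 encodes a small subunit protein at the messenger RNA entry site. Its lowest, median and highest values were 1.83, 9.84 and 11.45 in the Ski-WT cells, 5.20, 10.48 and 11.84 in prefix 051716 and 6.39, 10.59 and 12.14 in prefix 051816. The ranges overlapped, and the pooled difference of 0.74 was below the SD over Ski-WT cells (1.81). Rpl27a encodes a large subunit protein. Its values were 6.04, 8.83 and 10.33 in the Ski-WT cells, 6.43, 9.83 and 11.54 in prefix 051716 and 6.49, 9.38 and 10.90 in prefix 051816, a pooled difference of 0.65 that was smaller than the SD over Ski-WT cells (1.06).

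At the lower end stood Rpl30, with a pooled difference of -2.19 (-3.12 and -0.88 for 051716 and 051816). It encodes a large subunit protein that in yeast binds its own transcript. It was above 0 in 26 of 48 Ski-WT cells (54.2%, interval 39.2% to 68.6%), 4 of 27 cells of prefix 051716 (14.8%, 4.19% to 33.7%) and 7 of 19 cells of prefix 051816 (36.8%, 16.3% to 61.6%). Its median was 4.55 in the Ski-WT cells and 0 in both Ski-KO prefixes, while the highest values were 11.15, 8.96 and 10.67 in the order 061016, 051716 and 051816. In the cells above 0 the direction turned, with a pooled difference of medians of 1.63, and on the linear scale the means of TPM gave a log2 ratio of -0.67. Rpl30 is not a core member, and its level was the lowest among genes of standard subunit proteins.

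The other members at the ends of the order differed by less than 0.5 on the scale used here. Rplp1 of the acidic stalk was at 10.93 ± 0.91 in the Ski-WT cells, 11.48 ± 0.86 in prefix 051716 and 11.21 ± 1.26 in prefix 051816, a pooled difference of 0.44. Rpl23 had 0.44 and Rpl22 had 0.41. On the lower side, Rpl34 had -0.45, Rpl3 -0.24, Rpl7 -0.35 and Rpl26 -0.29. Each of these pooled differences was smaller than the SD of that gene over the Ski-WT cells. Rpl22 had 1.07 under quantile normalization, 0.64 with the number of genes above 0 as a covariate and 0.05 between medians over cells above 0, so its size rests on the processing. Rpl34 had -0.10 from linear means and -0.06 between medians over cells above 0, and Rpl26 had -0.05 and 0.13. Rpl34-ps1, which may share reads with Rpl34, went the other way, with 0.54 pooled (0.79 in prefix 051716 and 0.18 in prefix 051816). The sum of mean TPM for Rpl34 and Rpl34-ps1 was 2242 in the Ski-WT cells and 2809 and 2214 in prefixes 051716 and 051816. A lower summed level in both prefixes is thus not clear for Rpl34. Rpl7 had -0.22 from linear means, and Rpl23 had 0.27 under quantile normalization.

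Several members differed more between the Ski-KO prefixes than between the genotypes. Rps27l differed by -2.30 between prefix 051716 and prefix 051816, Rpl30 by -2.24, Rpl8 by -1.03 and Rpl4 by -0.84, whereas Rps27 (1.11), Rps13 (0.67) and Rps4x (0.67) were higher in prefix 051716. A gap of at least 0.5 between these prefixes was found for 16 of the 78 members (53.3% over all genes), and a pooled genotype difference of that size for 4 (42.6% over all genes). The genes in this paragraph were picked for their gaps after the values were seen.

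The acidic stalk, which recruits translation factors to the large subunit, consists of Rplp0 and copies of Rplp1 and Rplp2. Rplp0 was the highest of them in the Ski-WT cells at 11.57 ± 0.63, with Rplp1 at 10.93 and Rplp2 at 10.70 ± 0.70. In mean TPM these were 3302, 2328 and 1849, although the protein complex holds more P1 and P2 than P0. Rplp1 and Rplp2 had a correlation of 0.53 across the 94 cells, compared with 0.16 for Rplp0 and Rplp1 and 0.02 for Rplp0 and Rplp2. For Rplp1 and Rplp2 it was 0.63, 0.82 and 0.29 within prefixes 051716, 051816 and 061016. Set against the mean of the other core members, Rplp1 had 0.68, Rplp2 0.46 and Rplp0 0.11, so the contrast was not confined to the stalk. The pooled genotype differences of Rplp0 and Rplp2 were 0.07 and 0.09.

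Of 20 genes mutated in Diamond-Blackfan anaemia, all measured, 13 had higher means in both Ski-KO prefixes, and 1, Rpl26, had a lower mean in both (18.5% and 44.3% over all genes). Their median difference was 0.23, against 0.10 over all members, and none reached 0.5 with both prefixes on the same side. Rps27 had the highest pooled value (0.65), with 1.11 in prefix 051716 and -0.00 in prefix 051816, followed by Rpl35a (0.43), Rps29 (0.36) and Rps7 (0.35), which were higher in both. Rps14, the gene of the 5q deletion, had a lowest, median and highest value of 11.31, 12.60 and 13.99 in the Ski-WT cells, 11.37, 13.04 and 13.86 in prefix 051716 and 11.59, 12.62 and 13.69 in prefix 051816. Its difference was 0.24 in prefix 051716 and 0.00 in prefix 051816, within the spread over cells. Rpl5, Rpl11 and Rpl23, which in free form bind Mdm2 and link ribosome assembly to p53, had pooled differences of 0.18, 0.28 and 0.44.

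Lists of genes that act around the ribosome are given beside the shares over all genes, 18.5% higher and 44.3% lower in both prefixes. Among 13 elongation factor and other pyrimidine-start genes, all measured, 2 were higher in both prefixes, Pabpc1 (0.64) and Vim (1.24), and 7 were lower in both, with a median of -0.21, close to the -0.22 of all genes and with shares near theirs. Eef1g had -0.96, Eef1d -0.52 and Eef1a1, the elongation factor that brings tRNA to the ribosome, -0.32, with means of 13.22 and 13.27 in the Ski-KO prefixes and 13.56 ± 0.41 in the Ski-WT cells. Of the 48 listed genes of ribosomal RNA processing and ribosome assembly, 38 were measured, 4 were higher and 22 lower in both prefixes, and the median was -0.54, against -0.22 over all genes. The 4 lowest by the smaller of their prefix differences were Dkc1 (-1.93), the pseudouridine synthase of snoRNA particles, Wdr12 (-2.16), which acts in large subunit maturation with Pes1 and Bop1, Wdr43 (-1.36) and Nop56 (-1.99), while Fbl, the snoRNA methyltransferase gene, had 1.28.

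These assembly genes vary far more between cells than the members. Dkc1 had an SD of 3.72 over the Ski-WT cells and Nop56 of 3.83. Of 15 regulators of ribosomal protein synthesis, 11 were measured, 0 were higher and 4 lower in both prefixes: Eif4e (-2.04), the cap-binding factor, Rps6ka1 (-1.23), Eif4ebp1 (-0.74) and Mycn (-0.51). The number lower is near the share over all genes, and nothing particular to these regulators is read from it. Among ribosomal proteins outside the symbol rule, Gnb2l1 (-0.50) was lower in both prefixes, Fau had 0.57 in prefix 051716 and -0.34 in prefix 051816, and Rps3a1 had -0.18 and 0.04. Rpl22l1 was higher in both, by 0.86 pooled. No difference between a list and another was tested.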

How the data were processed

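Single cells were captured on the Fluidigm C1 system and made into SMARTer and Nextera XT libraries, per the labels' protocols. The submitters' processing notes list mm9 as build and RSEM and Bowtie2 as tools, without versions, and other steps are not given in the sources used here. The deposited values are log2(TPM + 1), read from the values: back-transformed, each of the 94 cells summed to between 997625 and 999995 TPM. No depth, counts or molecular identifiers are kept, so no read-based interval was computed. Cells had pairwise correlations of at most 0.53, so none was deposited in duplicate. No cell was left out, no doublet caller was run, and cells were not replicates.

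The difference of a gene is its Ski-KO mean less its Ski-WT mean, for genes passing the filter of 25% of a genotype's cells. Members, lists and alternatives were chosen with earlier results of these data known. The members named were the 5 highest and 5 lowest in level, in constancy relative to other members, and in genotype difference with both prefixes in 1 direction, those beyond 3 scaled median absolute deviations, and the stalk, variant copy, 5q and Mdm2-binding lists; up to 4 genes were named per other list. The coding length relation was added later. Promoters came from RefSeq (GRCm38.p6) and lengths from GENCODE vM21, a different build from mm9, matched by symbol. The scripts were tested on simulated data and ran in Python 3.11.15 with matplotlib 3.10.9, scipy 1.17.1, pandas 2.3.3 and numpy 2.4.6. Some genes that the rule names are not reported here.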

Additional observations from a re-analysis of the deposited data

How the results depend on the processing

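The median genotype difference over members stayed above 0 under other pseudocounts, filters, rescaling, linear means, single prefixes and detected genes as a covariate, and turned to -0.0065 under quantile normalization. It was 0.22 with medians over the cells above 0. Members lower in both prefixes were 23 under quantile normalization and 14 with the covariate, against 9. The share over all genes was 32.1%, 36.3% and 44.3% in the same order. Those higher by 0.5 or more, 2 as reported, were 4 for linear means, for quantile normalization and without the highest and lowest cell of each prefix (a choice made after seeing the data), 5 with the covariate and 6 with medians over cells above 0. Those lower by 0.5 or more, 1 as reported (Rpl30), were 0 for linear means and for medians over cells above 0, and 2 without the extreme cells. They were also 0 for both stricter filters, but these leave out Rpl30 itself, so that result was fixed beforehand. The shares over all genes past 0.5 are not given in this section for the alternative settings. Nothing particular to the members is therefore read from these changing counts. The differences of Rpl30 (1.63) and Rpl26 (0.13) turned positive with medians over cells above 0. Without the 100 highest other genes in the total, the member share was 28.7%, 27.1% and 25.8% in prefixes 051716, 051816 and 061016. Including members above 0 in 75% of cells, the spread within Ski-WT cells was 1.75. Other pseudocounts, no filter, quantile normalization and the covariate shifted the median over all genes by -0.13, 0.12, 0.13, 0.21 and 0.15, and linear means by 0.17. The cause of these changes was not tested. No paired analysis was possible because cell numbers in the labels only name cells and no animal is given. Depth is unknown, so a 0 in a cell does not show absence.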

Other observations

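The lowest member share of all, 11.9%, was in Ski-KO cell 34 of prefix 051816, with 3337 genes above 0 and an SD over core members of 2.21. The next lowest, 12.9%, was in Ski-WT cell 38, with 4815 genes above 0 and an SD of 1.47. The highest, 35.2%, was in Ski-WT cell 40, with 2717 genes above 0 and an SD of 1.38.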
